A study of Mus musculus with 2 samples.

Results

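Oligodendrocyte precursor nuclei were followed in single-nucleus RNA libraries of mouse hippocampus, 1 from a CAPZA2+/- mouse, a heterozygous knockout, and 1 from a WT (wild-type) mouse. Of 13635 nuclei kept, 224 were precursor nuclei, 111 of 7211 in the CAPZA2+/- library and 113 of 6424 in the WT library. A nucleus was counted as a precursor when it held at least 1 Pdgfra UMI (unique molecular identifier, 1 captured RNA molecule) and at least 3 UMIs of Pdgfra, Vcan, Cspg4 and Neu4 together. It could hold no Slc17a7, Col1a2 or Slc6a13 UMI and at most 1 UMI each of Rbfox3, of Gad1 plus Gad2 and of Mobp plus Mog, which limits neuronal, myelinating and fibroblast RNA. These gene counts chose the nuclei, so the levels of these genes are given as a description.

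The study set CAPZA2+/- hippocampus against WT hippocampus to compare cell populations. CAPZA2 is an alpha subunit of the actin capping protein, which binds the growing ends of actin filaments. Tissue was homogenised, nuclei were separated on a density gradient, and libraries were made with 10x Genomics 3′ v3 chemistry. The labels give no age, no deleted exon and no Cre driver, and the groups differ, as far as the labels say, in the CAPZA2 allele alone. No genotype was sampled more than once, so what follows compares 1 library with another, and genotype, animal, dissection and library cannot be told apart. No test was made, and each 95% interval is an exact one that covers counting error only.

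Oligodendrocyte precursor cells are the dividing glia that give rise to the myelinating oligodendrocytes of the brain and persist into adulthood. They are kept in the precursor state by platelet-derived growth factor acting on its receptor Pdgfra, carry the proteoglycan NG2 encoded by Cspg4, and receive synaptic input from neurons. On leaving this state they lose Pdgfra and pass through a short committed stage marked by the receptor Gpr17 before myelin genes are switched on.

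Promoter sequences of marker genes are shown, those of Pdgfra, Cspg4 and Neu4, which chose the nuclei, and that of Lhfpl3, which did not. For Vcan, which also chose the nuclei, the position of the window is given without its sequence. RefSeq entries (GRCm38.p6), from 250 bases before to 50 bases after the start of the gene, were matched for 5 of the 6 marker genes, all but Cacng4. Capitals mark CAGCTG or CAGATG on either strand, forms of the E-box that OLIG factors can bind. The SOX core letters ACAAAG and ACAATG were also searched on both strands, and none of the 5 windows held them.
Pdgfra, chr5:75152001-75152300, plus strand: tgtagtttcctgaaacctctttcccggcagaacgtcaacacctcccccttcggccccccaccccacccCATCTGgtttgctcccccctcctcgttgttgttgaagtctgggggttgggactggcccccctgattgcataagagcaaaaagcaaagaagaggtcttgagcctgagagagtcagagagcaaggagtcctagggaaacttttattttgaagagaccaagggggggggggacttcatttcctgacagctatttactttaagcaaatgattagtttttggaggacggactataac
Cspg4, chr9:56864854-56865153, plus strand: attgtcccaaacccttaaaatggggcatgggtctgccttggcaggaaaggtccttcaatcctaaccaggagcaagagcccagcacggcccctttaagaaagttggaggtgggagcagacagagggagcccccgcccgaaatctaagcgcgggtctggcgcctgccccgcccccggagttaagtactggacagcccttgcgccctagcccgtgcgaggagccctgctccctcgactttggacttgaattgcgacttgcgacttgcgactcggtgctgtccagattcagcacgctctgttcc
Neu4, chr1:94020243-94020542, plus strand: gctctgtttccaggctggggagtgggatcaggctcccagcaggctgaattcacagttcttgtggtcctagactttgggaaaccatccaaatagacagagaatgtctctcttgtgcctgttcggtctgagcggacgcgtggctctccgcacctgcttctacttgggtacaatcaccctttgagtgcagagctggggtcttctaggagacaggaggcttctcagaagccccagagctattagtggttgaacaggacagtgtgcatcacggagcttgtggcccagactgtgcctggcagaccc
Lhfpl3, chr5:22745804-22746103, plus strand: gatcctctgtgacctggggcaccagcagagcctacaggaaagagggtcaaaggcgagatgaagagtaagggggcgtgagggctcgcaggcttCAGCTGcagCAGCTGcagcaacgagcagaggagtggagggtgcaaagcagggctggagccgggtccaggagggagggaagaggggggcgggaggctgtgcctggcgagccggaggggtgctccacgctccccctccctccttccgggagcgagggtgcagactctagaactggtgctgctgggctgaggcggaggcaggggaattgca
The Lhfpl3 window held 2 E-box matches and the Pdgfra window held 1, while the Cspg4 and Neu4 windows and that of Vcan (chr13:89742463-89742762, minus strand) held 0. Among 32851 promoter windows of this length 30.6% held an E-box match and 28.6% a SOX core match, so matches of this kind are common. The libraries measure RNA and not binding at these windows.

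The 2 sets of precursor nuclei were sampled alike. They held 395565 UMIs in the CAPZA2+/- library and 377915 UMIs in the WT library, and the median nucleus had 3336 and 2992 UMIs and 1856 and 1753 genes. All nuclei kept were deeper, with a median of 6080 UMIs in the CAPZA2+/- library and 6894 UMIs in the WT library. The deposited matrices held 7801 CAPZA2+/- barcodes and 6512 WT barcodes. The filter, at least 500 genes and at most 5% mitochondrial UMIs, removed 7.56% and 1.35% of them. The 2 libraries shared 13 barcodes, and 0 of these were precursor nuclei.

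Precursor nuclei made up 1.54% of the nuclei kept in the CAPZA2+/- library (interval 1.27% to 1.85%) and 1.76% in the WT library (1.45% to 2.11%). The ratio was 0.875 (interval 0.667 to 1.15), so a difference in share was not detectable at this depth. Among non-neuronal nuclei the shares were 5.09% in the CAPZA2+/- library and 6.56% in the WT library, a ratio of 0.776 (0.592 to 1.02). Nuclei chosen by oligodendrocyte genes went the other way, with 581 (8.06%) in the CAPZA2+/- library and 413 (6.43%) in the WT library, a ratio of 1.25 (1.10 to 1.43). For every 100 such oligodendrocyte nuclei there were 19.1 precursor nuclei in the CAPZA2+/- library and 27.4 in the WT library. When barcodes were first thinned to 3000 UMIs each, which leaves out 2121 CAPZA2+/- and 1500 WT nuclei kept, the ratio turned to 1.15 (0.813 to 1.63). The plot of shares under each setting shows that all intervals of the ratio cross 1.

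**Figure D1:**
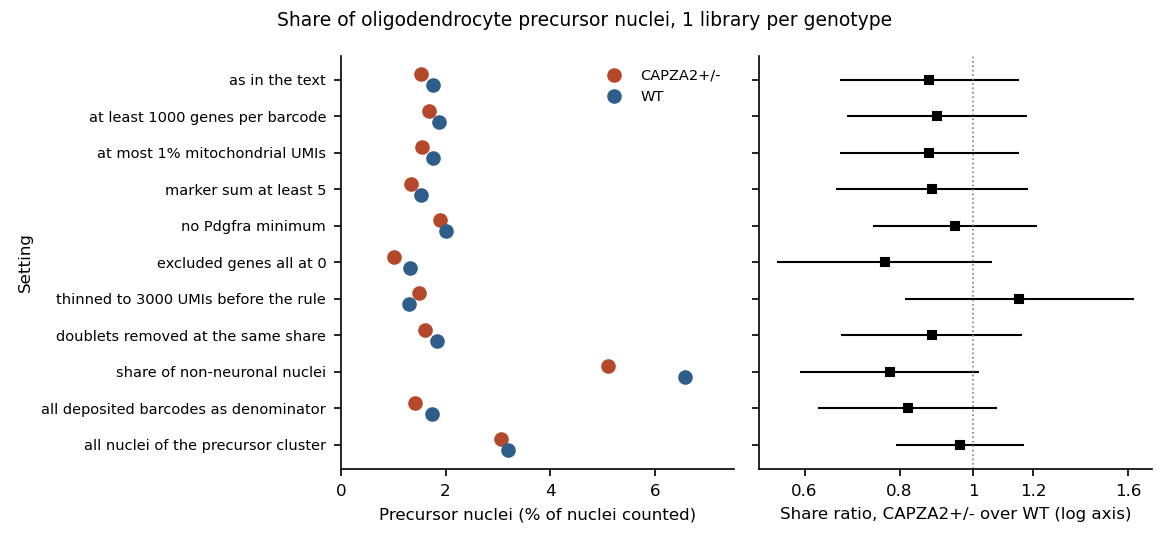
Left, precursor nuclei as a percentage of the nuclei counted in the CAPZA2+/- library (red) and the WT library (blue) under each setting; right, the ratio of the shares on a log axis with its exact 95% counting interval. The ratio is 0.875 as in the text and lies below 1 under all settings shown except thinning to 3000 UMIs, where it is 1.15.

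The rule is narrow. Clustering all nuclei kept gave 1 cluster led by Pdgfra, Neu4, Cspg4, Gpr17 and Cacng4, an oligodendrocyte precursor-like cluster of 221 CAPZA2+/- nuclei and 205 WT nuclei. Its share of the nuclei kept was 3.06% in the CAPZA2+/- library and 3.19% in the WT library, a ratio of 0.960 (0.791 to 1.17). It held 108 of the 111 CAPZA2+/- precursor nuclei and 108 of the 113 WT precursor nuclei. Another 2 CAPZA2+/- and 5 WT precursor nuclei lay in a cluster whose leading genes included Slco1c1, Gli3 and the astrocyte marker Gja1. Nuclei of that cluster had a median of 12156 UMIs, beside 3423 UMIs in the precursor-like cluster. The last CAPZA2+/- precursor nucleus lay in a cluster led by genes that included Bnc2 and Slc6a13. A further 113 CAPZA2+/- and 97 WT nuclei of the precursor-like cluster were outside the rule. Of these, 55 and 61 held a UMI of Slc17a7, the vesicular glutamate transporter of excitatory neurons, which was the sole reason for 37 CAPZA2+/- and 31 WT nuclei. Too few marker UMIs were the sole reason for 33 CAPZA2+/- and 26 WT nuclei. Lhfpl3, which the rule did not use, was found in 97.3% of these CAPZA2+/- nuclei and 96.9% of these WT nuclei. These nuclei serve below as a second reading of the same 2 libraries, but they differ in make-up between them. Their median depth was 3718 UMIs in the CAPZA2+/- and 4240 UMIs in the WT library. Slc17a7 was found in 48.7% of the CAPZA2+/- and 62.9% of the WT nuclei of this set. The oligodendrocyte gene Mobp had 14 UMIs in the CAPZA2+/- and 53 UMIs in the WT nuclei. The part of such RNA in the second reading was not tested.

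At the edge of the rule, 7 CAPZA2+/- and 4 WT precursor nuclei had exactly 3 marker UMIs, with a median of 9 and 9.5 Lhfpl3 UMIs. Just outside it, 2 CAPZA2+/- and 6 WT nuclei had 2 marker UMIs with Pdgfra among them, with a median of 17.5 and 6.5 Lhfpl3 UMIs. A larger group, 26 CAPZA2+/- and 16 WT nuclei, had at least 3 marker UMIs and none of Pdgfra. The nuclei inside and outside the edge overlap in Lhfpl3.

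The genes that chose the nuclei are high in them by construction, and their levels are given to describe the nuclei. Values are UMIs per 1000000 UMIs of the summed precursor nuclei (CPM), and each ratio is the log2 of the CAPZA2+/- level over the WT level. Of the genes in the rule, Pdgfra, the growth factor receptor, had 1052 CPM in CAPZA2+/- and 1109 CPM in WT precursor nuclei. Vcan, the proteoglycan versican, had 1100 and 1143 CPM, Cspg4 had 276 and 302 CPM, and the sialidase gene Neu4 had 207 and 267 CPM. The intervals of all 4 ratios held 0.

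Lhfpl3, a membrane protein gene outside the rule, had 2889 UMIs (7303 CPM) in CAPZA2+/- and 2763 UMIs (7311 CPM) in WT precursor nuclei, a log2 ratio of -0.00 (-0.08 to 0.07). Every precursor nucleus held it, with 4 to 82 UMIs (median 24) in CAPZA2+/- and 3 to 104 (median 20) in WT nuclei. Other nuclei kept held it in 20.1% of CAPZA2+/- and 25.6% of WT nuclei. Cacng4, an auxiliary subunit of AMPA receptors, had 470 CPM in CAPZA2+/- and 405 CPM in WT precursor nuclei, with a log2 ratio of 0.22 (-0.10 to 0.53). Both of these marker genes outside the rule were at least 4-fold higher in precursor nuclei than in all other nuclei kept, in both libraries.

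Genes with at least 100 UMIs over both sets of precursor nuclei, 1389 of 16281 with any UMI, are called counted genes. Of these 171 (12.3%) were at least 4-fold higher than in all other nuclei of the same library, in both libraries. Of the 25 listed precursor genes outside the rule, 22 reached 100 UMIs and 17 of these were past that fold. Ntn1, the guidance cue netrin-1, had 207 CPM in CAPZA2+/- and 214 CPM in WT precursor nuclei, against 3.19 and 2.80 CPM in the other nuclei of the same libraries. C1ql1, a secreted C1q-like protein, had 149 and 124 CPM in precursor nuclei and 2.29 and 1.97 CPM in the other nuclei. Further genes of this kind were Emid1, Shc4, Afap1l2, Arhgap31 and Calcrl, each at least 34.1-fold higher in both libraries. The remaining 5 of the 22, Alk, Fam155a, Gria4, Grik1 and Kcnip1, were not past that fold, and Fam155a was lower than in the other nuclei. On the opposite side 34 genes (2.45%) were at least 4-fold lower than in the other nuclei in both libraries. Among them, chosen after their values were seen, were the potassium channel partner gene Kcnip4 and the AMPA receptor gene Gria1, both abundant in neurons, which were lower by 5.18 and 3.98 log2 units in the CAPZA2+/- library and by 4.81 and 3.93 in the WT library.

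**Figure D2:**
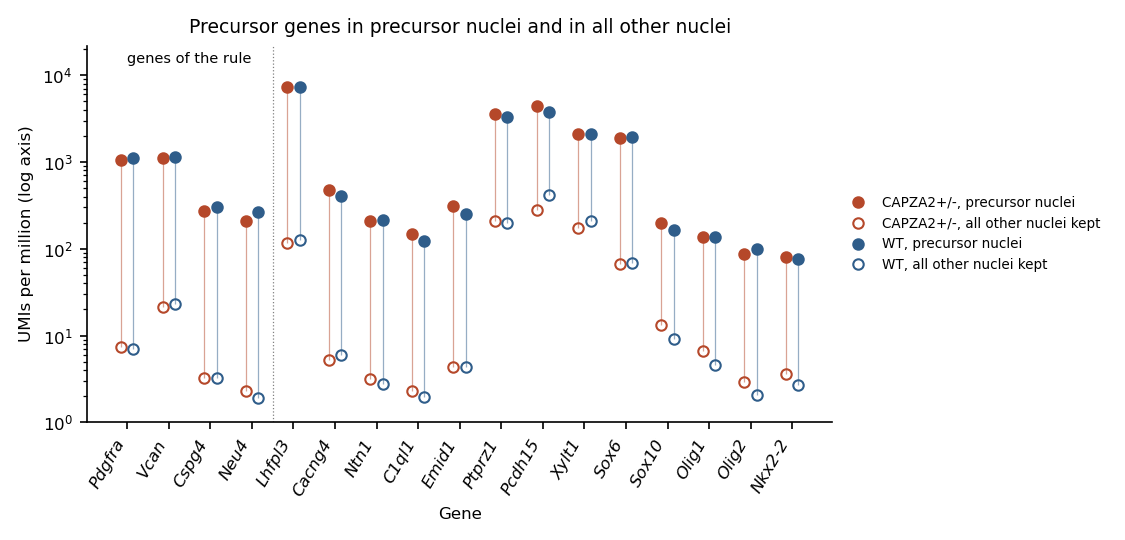
Summed counts (CPM) on a log axis for genes of the rule (left of the dotted line) and genes outside it, in precursor nuclei (filled) and all other nuclei kept (open) of the CAPZA2+/- (red) and WT (blue) libraries. Filled points stand far above open points, and the libraries lie close together, as for Lhfpl3 with 7303 CPM in CAPZA2+/- and 7311 CPM in WT precursor nuclei.

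The counted transcription factor genes of the lineage were all within 1.5-fold between the libraries. Sox10, which drives the oligodendrocyte lineage, had 79 UMIs in CAPZA2+/- and 63 UMIs in WT precursor nuclei, a log2 ratio of 0.26 (-0.24 to 0.76). Olig1 had 54 and 51 UMIs, Olig2 had 34 and 38 UMIs, and Nkx2-2, linked to differentiation, had 32 and 29 UMIs. These 3 genes are too thinly counted to show any but a large difference. Sox6, which holds precursors undifferentiated, had 1906 CPM in CAPZA2+/- and 1929 CPM in WT precursor nuclei. Its relative Sox5 had 1380 and 1178 CPM, a log2 ratio of 0.23 (0.05 to 0.41). Of the 29 listed factors 12 reached 100 UMIs and 0 were at least 1.5-fold higher or lower, beside 4.25% of all 1389 counted genes. Their median log2 ratio was 0.02, beside -0.01 over all 1389 genes.

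The targeted gene was lower in the CAPZA2+/- precursor nuclei, within counting error. Capza2 (chromosome 6, 17636234 to 17666972, GRCm38) had 27 UMIs in 21 CAPZA2+/- nuclei and 40 UMIs in 35 WT nuclei, which is 68.3 and 105.8 CPM. The log2 ratio was -0.63 (-1.39 to 0.11). In nuclei chosen by oligodendrocyte genes it was -0.78 (-1.13 to -0.43), and in all other nuclei kept -0.36 (-0.42 to -0.30). The labels do not give the deleted part of the gene, so whether these 3′ reads can show the deletion is not known.

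The partner genes of the capping protein were thinly counted too. Capza1, the other widely used alpha subunit, had 19 UMIs in CAPZA2+/- and 28 UMIs in WT precursor nuclei, a log2 ratio of -0.63 (-1.55 to 0.27). Capzb, the beta subunit, had 17 and 21 UMIs, and the testis form Capza3 had 0 in both. Over the whole cluster Capza1 had 54 UMIs in the CAPZA2+/- and 84 UMIs in the WT library, -0.57 (-1.09 to -0.06). The whole-cluster ratios were -0.36 (-0.84 to 0.12) for Capza2 and -0.22 (-0.84 to 0.40) for Capzb. In nuclei outside both the rule and the cluster Capza1 was at -0.02 (-0.09 to 0.04). Over the list of capping protein genes and their regulators, 22 found in the files, only Eps8 and Cd2ap reached 100 UMIs. Eps8, which itself caps and bundles actin, had 177 CPM in CAPZA2+/- and 185 CPM in WT precursor nuclei and was 2.85 and 2.79 log2 units above the other nuclei.

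Of the 12 counted genes for actin filaments and their turnover, 1 was past 1.5-fold, beside 4.25% of all counted genes. Actg1, which encodes cytoplasmic gamma-actin, had 72 UMIs in 56 CAPZA2+/- nuclei and 34 UMIs in 28 WT nuclei, a log2 ratio of 1.02 (0.41 to 1.65). In the cluster nuclei outside the rule Actg1 had 83 UMIs in the CAPZA2+/- and 54 UMIs in the WT library, 0.77 (0.26 to 1.29), and in all other nuclei kept the ratio was 0.19 (0.13 to 0.25). Actb, the beta-actin gene, had 480 CPM in CAPZA2+/- and 550 CPM in WT precursor nuclei, -0.20 (-0.49 to 0.09). Actin genes have near-identical copies and pseudogenes, so reads may be shared between them. The formin gene Fmnl2, whose product elongates actin filaments, had 273 and 389 CPM, -0.51 (-0.88 to -0.14). Of 5 counted Arp2/3, WAVE and WASH genes 0 were past 1.5-fold, beside 4.25% of all counted genes, with a median of 0.09.

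Between the 2 libraries, 19 of the 1389 genes (1.37%) were at least 1.5-fold higher in CAPZA2+/- precursor nuclei and 40 (2.88%) at least 1.5-fold lower, 4.25% in all. Intervals lay wholly above 0 for 79 genes and wholly below 0 for 82. The 12 genes furthest apart in each direction by the near end of the interval are named, and 14 of these 24 overlap another annotated gene, 12 of them a gene on the opposite strand. The sources used here do not give the strand setting of the counting, so counts of those genes are uncertain. The share of all 1389 counted genes with such an overlap was not worked out, so 14 of 24 does not set the named genes apart.

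On the higher side stood Mef2c, Actg1, Cadps2, Fgf14, H3f3b, Kcnh7, Ndufa4, Rpl24, Plcb1, Kcnc2, Nrgn and Pcdh15, of which 8 were past 1.5-fold. Mef2c, a transcription factor of neurons and microglia, had 89 UMIs in CAPZA2+/- and 43 UMIs in WT precursor nuclei, 0.98 (0.44 to 1.54). Its level turned in the cluster nuclei outside the rule, with 102 UMIs in the CAPZA2+/- and 163 UMIs in the WT library, -0.53 (-0.90 to -0.16). Fgf14, a modulator of sodium channels, behaved likewise, at 0.45 (0.32 to 0.59) in precursor nuclei and -0.16 (-0.27 to -0.06) in the nuclei outside the rule.

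Pcdh15, a protocadherin gene strong in precursors, was higher in both readings. It had 4439 CPM in CAPZA2+/- and 3731 CPM in WT precursor nuclei, 0.25 (0.15 to 0.35), and 0.33 (0.22 to 0.44) in the cluster nuclei outside the rule. Other precursor genes were higher outside the rule too, Lhfpl3 at 0.26 (0.17 to 0.34) and Pdgfra at 0.30 (0.04 to 0.56). In precursor nuclei these 2 genes were at -0.00 and -0.08. Whether Pcdh15 differs outside the rule apart from precursor RNA as a whole was not tested. In nuclei outside both the rule and the cluster the Pcdh15 ratio was -0.65 (-0.68 to -0.62). H3f3b, which encodes histone H3.3, Ndufa4, a respiratory chain protein, and Nrgn, the postsynaptic calmodulin-binding protein neurogranin, had ratios of 0.83, 0.61 and 0.48 in precursor nuclei. All 3 were also higher in the other nuclei kept, at 0.40, 0.26 and 0.29. Nrgn is an excitatory neuron gene, and the summed list of 10 excitatory neuron markers had 555 UMIs in CAPZA2+/- and 452 UMIs in WT precursor nuclei, 0.23 (0.05 to 0.41). Nrgn itself gave 198 UMIs of the CAPZA2+/- sum and 136 UMIs of the WT sum. The ratio without Nrgn was not worked out, so the sum does not show a difference of the list apart from Nrgn. Of that list Slc17a7 was at 0, as the rule requires, and Rbfox3 was limited by it; without both the ratio was 0.23 (0.04 to 0.41), and the part of neuronal RNA in these results was not tested.

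On the lower side stood Clk1, Dyrk1a, Tmcc3, Kcnt2, Zfp407, Gnao1, Sdk1, Zmym2, Dnajc1, Srgap2, Etv6 and Nrg3os, all 12 past 1.5-fold. Clk1, a kinase of splicing factors, had 65 UMIs in CAPZA2+/- and 113 UMIs in WT precursor nuclei, -0.86 (-1.33 to -0.41). Dyrk1a, a kinase gene dosage-sensitive in brain growth, had 41 and 72 UMIs, -0.88 (-1.47 to -0.30). In the cluster nuclei outside the rule these were closer, -0.12 (-0.48 to 0.23) for Clk1 and -0.20 (-0.70 to 0.30) for Dyrk1a.

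Sdk1, a synaptic adhesion gene, was lower in both readings. It had 92 UMIs in CAPZA2+/- and 135 UMIs in WT precursor nuclei, -0.62 (-1.02 to -0.23), and -0.49 (-0.85 to -0.12) in the nuclei outside the rule. Its ratio in the other nuclei kept was -0.43. Srgap2, a regulator of Rac and of membrane protrusions, had 39 UMIs in CAPZA2+/- and 65 UMIs in WT precursor nuclei, -0.80 (-1.41 to -0.21), but 0.20 (-0.26 to 0.67) in the nuclei outside the rule.

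**Figure D3:**
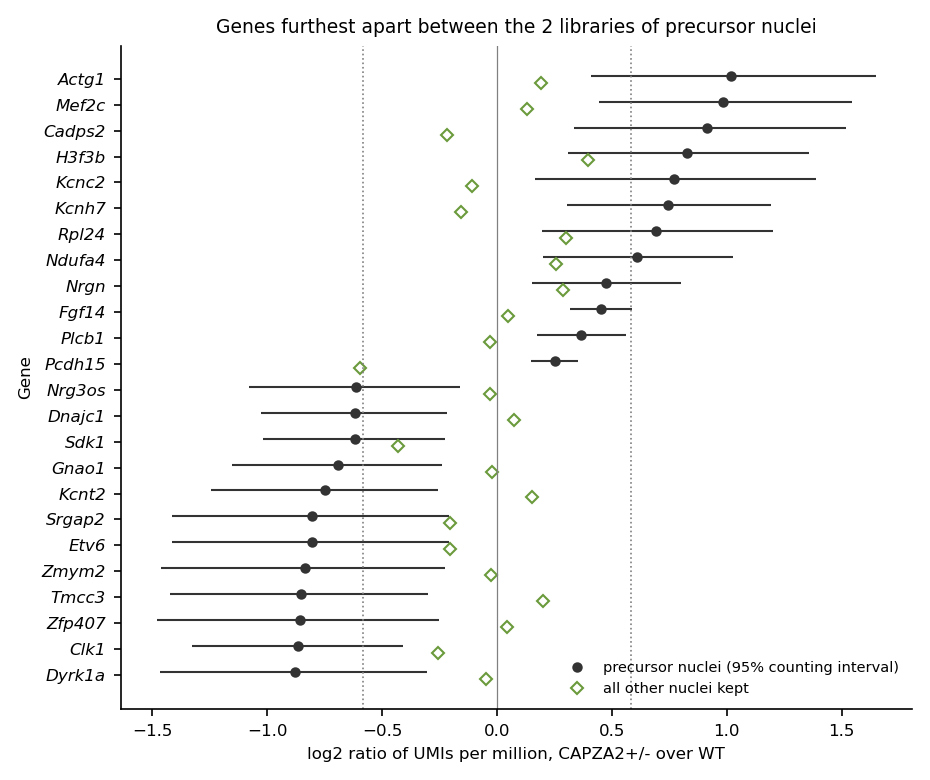
The log2 ratio of CPM, CAPZA2+/- over WT, for the 24 named genes in precursor nuclei (dark points with exact 95% counting intervals) and in all other nuclei kept (open diamonds). Dotted lines mark 1.5-fold, which 8 of the 12 higher and all 12 lower genes pass, while most diamonds lie nearer 0.

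Genes of the committed stage were lower as a sum in CAPZA2+/- precursor nuclei. The 18 listed genes, with Neu4 of the rule among them, together had 871 UMIs in CAPZA2+/- and 975 UMIs in WT precursor nuclei, -0.23 (-0.36 to -0.10). Without Neu4 the sums were 789 and 874 UMIs, -0.21 (-0.35 to -0.07). The sum without Neu4 turned in the cluster nuclei outside the rule, to 0.41 (0.33 to 0.50), and over the whole cluster, to 0.23 (0.15 to 0.30). Of the 7 listed genes with at least 100 UMIs 0 were past 1.5-fold in precursor nuclei, beside 4.25% of all counted genes, and their median ratio was -0.11. Bcas1, found in early myelinating cells, had 271 CPM in CAPZA2+/- and 328 CPM in WT precursor nuclei, Tns3 had 180 and 235 CPM, and Itpr2 had 442 and 415 CPM, each with an interval that held 0. Bcas1 and Tns3 turned as well, to 0.51 (0.28 to 0.73) and 0.87 (0.56 to 1.19) in the nuclei outside the rule and to 0.29 (0.10 to 0.48) and 0.47 (0.21 to 0.73) over the whole cluster.

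Gpr17, the receptor that marks committed precursors, lay just under the minimum of 100 UMIs. It had 34 UMIs in CAPZA2+/- and 63 UMIs in WT precursor nuclei (86.0 and 166.7 CPM), a log2 ratio of -0.96 (-1.60 to -0.33). It was found in 27 CAPZA2+/- nuclei (24.3%, 16.7% to 33.4%) and in 48 WT nuclei (42.5%, 33.2% to 52.1%). The difference in UMIs ran the other way in the cluster nuclei outside the rule, where Gpr17 had 100 UMIs in the CAPZA2+/- and 73 UMIs in the WT library, 0.60 (0.15 to 1.06). The share of nuclei with a Gpr17 UMI did not turn there, at 38.9% (29.9% to 48.6%) in the CAPZA2+/- and 41.2% (31.3% to 51.7%) in the WT library. Over the whole cluster it had 134 UMIs in each library, 0.06 (-0.29 to 0.42), in 32.1% of CAPZA2+/- nuclei (26.0% to 38.7%) and 42.0% of WT nuclei (35.1% to 49.0%). The difference in UMIs among precursor nuclei therefore depends on which nuclei of the cluster the rule takes. Lhfpl3 had a ratio of 0.26 in the nuclei outside the rule. In nuclei outside both the rule and the cluster Gpr17 was found in 0.472% of CAPZA2+/- and 0.740% of WT nuclei, at median depths of 6277 and 7071 UMIs.

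**Figure D4:**
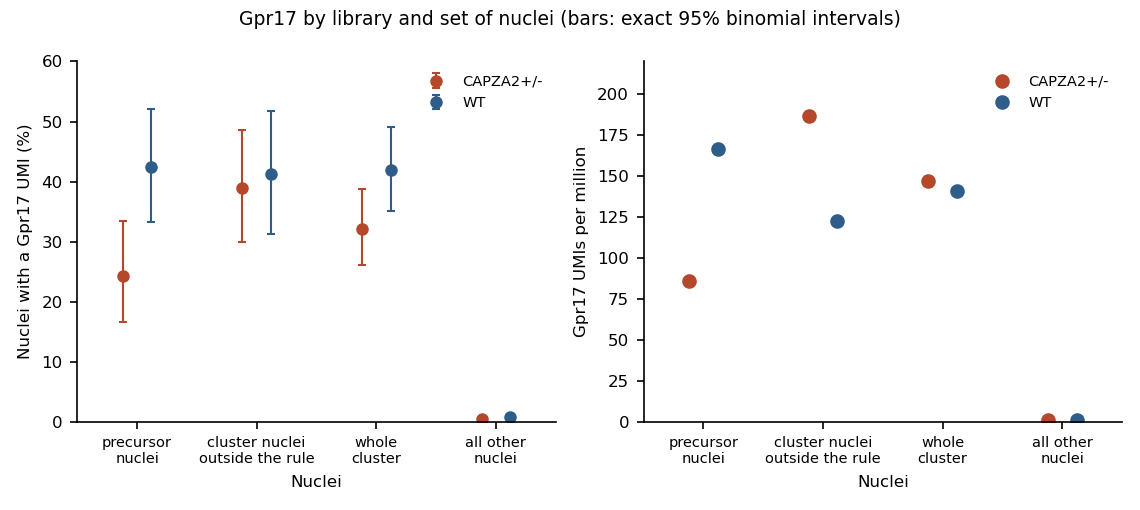
Left, the percentage of nuclei with a Gpr17 UMI, with exact 95% binomial intervals, and right, Gpr17 CPM, in the CAPZA2+/- (red) and WT (blue) libraries for 4 sets of nuclei. Among precursor nuclei CAPZA2+/- has 86.0 and WT 166.7 CPM, among cluster nuclei outside the rule 186.6 and 122.9, and over the whole cluster 147.3 and 140.8.

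The rule asks for Pdgfra, which cells lose on leaving the precursor state, and limits the myelin genes Mobp and Mog. It therefore leaves few nuclei of later stages to be found. At least 3 UMIs of Gpr17, Bmp4 and Enpp6 together were found in 1 of 111 CAPZA2+/- and 5 of 113 WT precursor nuclei. The ratio of these shares was 0.204 (0.00430 to 1.82). Over the whole cluster as many UMIs were found in 23 of 221 CAPZA2+/- nuclei (10.4%) and 19 of 205 WT nuclei (9.27%). Ugt8a, which makes myelin galactolipids, had 73 UMIs in CAPZA2+/- and 62 UMIs in WT precursor nuclei. The 16 myelin genes summed to 0.07 (-0.17 to 0.31) in precursor nuclei and 0.47 (0.45 to 0.49) in the other nuclei kept.

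Few precursor nuclei held genes of dividing cells. At least 3 UMIs of Mki67, Top2a, Cenpe, Cenpf and Kif11 together were found in 0 of 111 CAPZA2+/- nuclei, which allows a share of up to 2.70% (taking 3 nuclei as the limit of a count of 0), and in 1 of 113 WT nuclei. That WT nucleus held 17 Top2a UMIs and 61 of the 128 cell cycle UMIs of the WT precursor nuclei. The 29 listed cell cycle genes summed to 65 UMIs in CAPZA2+/- and 128 UMIs in WT precursor nuclei, and to 65 and 67 without that nucleus (164 and 180 CPM). Over the whole cluster 0 of 221 CAPZA2+/- and 4 of 205 WT nuclei met this criterion. Cyclin D1, encoded by Ccnd1, had 33 UMIs in CAPZA2+/- and 30 UMIs in WT precursor nuclei.

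The counted growth factor receptor and signalling genes were all within 1.5-fold between the libraries. Erbb4, a neuregulin receptor, had 3188 CPM in CAPZA2+/- and 3212 CPM in WT precursor nuclei, and the neurotrophin receptor genes Ntrk2 and Ntrk3 had ratios of -0.20 and 0.00. Of 31 listed receptor and signalling genes 13 reached 100 UMIs, and their median ratio was -0.07. None of the 13 was past 1.5-fold, beside 4.25% of all counted genes.

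Of the 11 counted proteoglycan and matrix genes outside the rule 10 were at least 4-fold above the other nuclei in both libraries, beside 12.3% of all counted genes. Ptprz1, a receptor phosphatase proteoglycan, had 3613 CPM in CAPZA2+/- and 3263 CPM in WT precursor nuclei, 0.15 (0.04 to 0.26). Gpc5, a glypican that is also an astrocyte gene, had 5129 and 4562 CPM, 0.17 (0.08 to 0.26). A single CAPZA2+/- nucleus held 185 of its 2029 UMIs there, and the highest WT nucleus held 73 of 1724. The Gpc5 ratio without these nuclei was not worked out. The matrix genes Bcan (brevican), Tnr (tenascin-R) and Matn4 (matrilin-4) had ratios of -0.13, 0.09 and -0.20. Of 13 counted genes of the list 0 were past 1.5-fold, beside 4.25% of all counted genes.

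Glutamate receptor and auxiliary subunit genes summed to 10233 CPM in CAPZA2+/- and 10076 CPM in WT precursor nuclei, below the 21054 and 20955 CPM of the other nuclei kept. Snap25, a synaptic gene of neurons, was found in 79.3% of CAPZA2+/- and 72.6% of WT precursor nuclei, and the part of neuronal RNA in the levels of these receptors was not tested. Of 13 counted glutamate receptor and auxiliary subunit genes 0 were past 1.5-fold, with a median of -0.02. Gria2 and Gria4, AMPA receptor subunits, had 1873 and 1259 CPM in CAPZA2+/- and 1749 and 1273 CPM in WT precursor nuclei. Grin3a, an NMDA receptor subunit gene, had 518 CPM in CAPZA2+/- and 598 CPM in WT precursor nuclei and was 2.93 and 2.94 log2 units above the other nuclei. Of 6 counted GABA receptor genes 0 were past 1.5-fold, and Gabrg3, an A-type receptor subunit, had the ratio furthest from 0, at -0.53 (-0.91 to -0.15). Of 16 counted ion channel genes 0 were past 1.5-fold. Beside each of these lists the share over all counted genes was 4.25%, and a count of 0 in lists this short cannot be told apart from it.

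Of 11 counted guidance genes 4 were at least 4-fold above the other nuclei in both libraries, beside 12.3% of all counted genes. Between the libraries 0 of the 11 were past 1.5-fold, beside 4.25% of all. Dcc, the netrin receptor, had 2235 CPM in CAPZA2+/- and 1900 CPM in WT precursor nuclei, 0.23 (0.09 to 0.38). Of 30 counted adhesion genes 22 had a ratio above 0, beside 679 (48.9%) of all 1389, with a median of 0.07, and 1 was past 1.5-fold, beside 4.25% of all. That gene was Cntnap2, a contactin-associated protein gene of neurons, with 141 UMIs in CAPZA2+/- and 70 UMIs in WT precursor nuclei. A single CAPZA2+/- nucleus held 78.0% of its UMIs there, and the ratio was -0.87 with doublets removed.

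Choroid plexus and mitochondrial genes differed more than most lists, and in the same direction in the other nuclei of the same libraries. Ttr, the transthyretin gene of choroid plexus, had 256 UMIs in 84 CAPZA2+/- nuclei and 38 UMIs in 24 WT nuclei, 2.69 (2.19 to 3.22), and 1 CAPZA2+/- nucleus held 101 of them. Among precursor nuclei with at least 5 marker UMIs the ratio was 1.99. In nuclei outside both the rule and the cluster Ttr was found in 71.7% of CAPZA2+/- and 29.6% of WT nuclei, 1.93 (1.87 to 1.99). Of the other 7 choroid plexus markers, Aqp1 and Sostdc1 were at 0 in both sets of precursor nuclei and none had more than 7 UMIs.

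All 6 mitochondrially encoded genes with at least 100 UMIs were past 1.5-fold lower in CAPZA2+/- precursor nuclei, beside 2.88% of all counted genes. These 6 are among the 40 genes counted above as at least 1.5-fold lower. The 13 genes summed to 890 CPM in CAPZA2+/- and 1717 CPM in WT precursor nuclei, -0.95 (-1.14 to -0.76), and to -0.65 (-0.67 to -0.63) in the other nuclei kept. The cytochrome oxidase gene mt-Co3 had 63 UMIs in CAPZA2+/- and 133 UMIs in WT precursor nuclei. These transcripts lie outside the nucleus, and their part in the other differences was not tested.

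Marker lists of other cell types ranged widely in the precursor nuclei, and the rule itself limits some of their genes. The 10 inhibitory neuron markers summed to 1439 UMIs in CAPZA2+/- and 1369 UMIs in WT precursor nuclei, 3638 and 3623 CPM, beside 988 and 1214 CPM in the other nuclei kept. Erbb4, also a receptor of precursors, gave 1261 and 1214 of these UMIs and Sst 52 and 49, while Gad1 and Gad2 are limited by the rule. The 10 microglia markers summed to 27 UMIs in CAPZA2+/- and 50 UMIs in WT precursor nuclei, -0.95 (-1.69 to -0.25), against 0.34 in the other nuclei kept. Tmem119, Csf1r and Siglech, which define microglia, had 0 UMIs in CAPZA2+/- precursor nuclei and 1, 2 and 3 in WT precursor nuclei. The 10 endothelial markers summed to 11 UMIs in CAPZA2+/- and 6 UMIs in WT precursor nuclei, and the 8 pericyte or fibroblast markers outside the rule to 3 and 3. The 8 oligodendrocyte markers outside the rule summed to 136 UMIs in CAPZA2+/- and 141 UMIs in WT precursor nuclei. Astrocyte markers summed to 2418 and 2046 UMIs, of which Gpc5 gave 2029 and 1724, while Gfap had 1 and 0 and Aqp4 10 and 8. A single CAPZA2+/- nucleus held 185 of the Gpc5 UMIs, and a single CAPZA2+/- nucleus held 70 of the 198 Slc1a2 UMIs. The 4 haemoglobin genes summed to 21 UMIs in CAPZA2+/- and 13 UMIs in WT precursor nuclei.

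**Figure D5:**
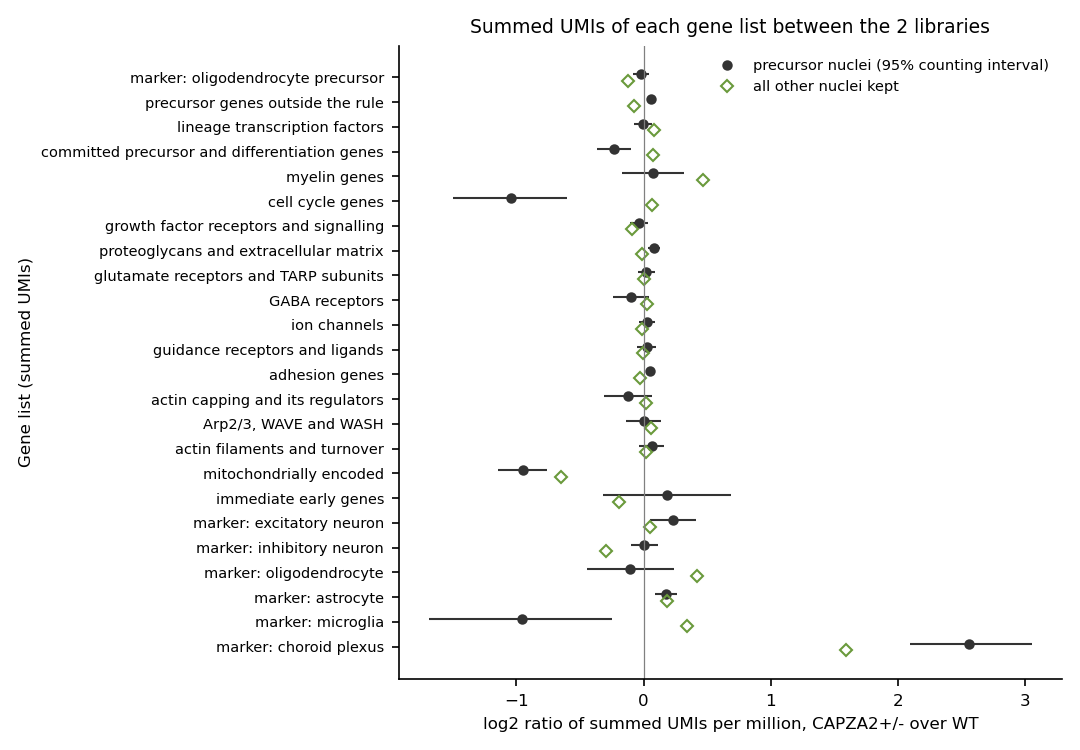
The log2 ratio of summed counts (CPM), CAPZA2+/- over WT, for each gene list with at least 50 UMIs, in precursor nuclei (dark points with exact 95% counting intervals) and in all other nuclei kept (open diamonds). Most lists lie near 0. Choroid plexus markers (2.56) and mitochondrially encoded genes (-0.95) lie far from it in the same direction in both sets of nuclei. Cell cycle genes (-1.04) and microglia markers (-0.95) lie below 0 in precursor nuclei and above it in the other nuclei (0.07 and 0.34). For cell cycle genes 1 WT nucleus held 61 of the 128 WT UMIs, and without it the sums were 65 UMIs in CAPZA2+/- and 67 UMIs in WT precursor nuclei. The microglia sums were 27 and 50 UMIs.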

How the data were processed

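The authors deposited 1 filtered matrix of UMI counts per library (single-nucleus 10x 3′ v3), with Cell Ranger 7.1.0 and build mm10 per the submitters' processing notes. Annotation and strand setting are not given in the sources used here. Nothing was normalised before deposit, as the whole numbers in the files show. The nuclei and gene lists were chosen with earlier results of these data known.

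Barcodes with at least 500 genes and at most 5% mitochondrial UMIs were kept. UMIs of the chosen nuclei were summed per library, scaled to 1000000, and compared as log2 ratios with exact conditional binomial 95% intervals; shares have exact Clopper-Pearson intervals. Genes needed 100 UMIs over both libraries to be counted, and 1.5-fold was the size used in place of a test. Named genes were the 12 furthest from 0 each way by the near bound, leaving out mitochondrial, sex-linked and rule genes and genes with over 20% of a library's UMIs in 1 nucleus; 1 unnamed gene model on the higher side and 2 on the lower side were passed over. Nuclei were clustered with scanpy 1.11.5 and leidenalg 0.10.2. Scrublet's own threshold marked 0% of the CAPZA2+/- and 9.48% of the WT nuclei, so the highest scores were removed at about 6% in both as an alternative; no doublets were removed otherwise. The comparison was tested on simulated counts. Gene positions are from GENCODE M21, which matched 32235 of 32285 gene IDs. Sequences are RefSeq's. Results of 2 genes are not reported here.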

Additional observations from a re-analysis of the deposited data

How the results depend on the processing

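The 10 settings fixed at the start kept all 24 named genes inside their own intervals. The ratio of the precursor share was 1.15 when barcodes were thinned to 3000 UMIs. Genes at least 1.5-fold higher and lower were 122 and 175 of 3027 at a minimum of 50 UMIs, 4 and 3 of 524 at 200 UMIs, and 9 and 13 of 576 after thinning to 2000 UMIs; with all excluded genes at 0 they were 21 and 23 of 832. At a minimum of 50 UMIs 277 genes were at least 4-fold above the other nuclei. Nuclei of the committed stage were 5.41% in the CAPZA2+/- and 13.3% in the WT library at 2 UMIs, and 0% and 1% after thinning. Cntnap2 reversed to -0.18 with nuclei weighted alike, to -1.31 with excluded genes at 0 and to -0.87 with doublets removed. Settings chosen after seeing the data used the precursor cluster. Over the whole cluster 76 genes were higher and 113 lower of 3599, the committed stage was at 10.4% in the CAPZA2+/- and 9.27% in the WT library, and Mef2c (-0.061) and Gpr17 (0.065) reversed. In its nuclei outside the rule 113 genes were higher and 97 lower of 2170, and Mef2c (-0.53), Rpl24 (-0.011), Zfp407 (0.31), Gnao1 (0.088), Srgap2 (0.20), Gpr17 (0.60) and Cntnap2 (-0.091) reversed; Fgf14, under 1.5-fold in both, changed sign to -0.16, as did the summed committed-stage genes without Neu4 (0.41, and 0.23 over the whole cluster). The minimum and the number of nuclei set how many genes were counted; the cause of the other changes was not tested. No paired analysis was possible because each genotype has 1 library. With 111 and 113 nuclei, genes under 100 UMIs, Capza2 among them, can show only large differences.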

Other observations

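Among the 20 genes that stood furthest above all other nuclei kept in both libraries, 5 were gene models without a functional name: Gm42948, 6030407O03Rik, A930009A15Rik, Gm33680 and Gm4876. Gm4876 had 296 UMIs in CAPZA2+/- and 290 UMIs in WT precursor nuclei and was at least 36.6-fold higher than in the other nuclei of each library. The 20 genes had a median genomic span of 83.8 kb, beside 141.7 kb over all 1389 genes counted. Stk32a, a kinase gene of this group, had 120 UMIs in CAPZA2+/- and 160 UMIs in WT precursor nuclei, -0.48 (-0.83 to -0.13). Its ratio was -0.01 (-0.41 to 0.39) in the cluster nuclei outside the rule and -0.21 (-0.48 to 0.05) over the whole cluster. In nuclei outside both the rule and the cluster the Stk32a ratio was -0.37 (-0.58 to -0.17).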
